A study of Homo sapiens with 8 samples.

Results

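SCAMP4, KDM5A, WASL and FKBP1A are 4 genes whose promoters held some of the strongest FLI1 peaks of both lymphoma cell lines studied. They were chosen by the -log10 q and the ranks of their peaks in the libraries described here, so their strength is a description and was not tested. The 4 genes are a small part of the 20136 protein coding genes annotated, and of the 62259 genes of all kinds. For each gene, every peak centred within 3 kb of any of its annotated transcription start sites (TSS) was taken.

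FLI1 occupancy was measured by ChIP-Seq with a rabbit polyclonal antibody in 2 established lines of germinal center B cell type diffuse large B cell lymphoma (GCB DLBCL), named OCI-Ly1 and VAL. No treatment, knockdown or genetic change is named in the labels of these samples, and at least 5 immunoprecipitations were pooled for each ChIP-Seq experiment. Each line has 2 FLI1 replicates and 2 samples of input DNA, the latter not analysed here. The values come from OCI-Ly1 replicate 2, called the OCI-Ly1 library from here on, and from VAL replicates 1 and 2, and unless said otherwise 3 values in a row follow that order. For OCI-Ly1 replicate 1 only 37 intervals are listed, 33 of them over 1 Mb long, and all 4 genes lie inside such intervals, so it gives no position and was not used. OCI-Ly1 is thus represented by a single library, and nothing in the labels says whether the VAL replicates came from separate cultures.

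FLI1 is a transcription factor of the ETS family, whose DNA-binding domain recognises a GGAA core, preferably preceded by CC, and it is known in blood cells for roles in megakaryocytes, endothelial precursors and B cells. SCAMP4 is a secretory carrier membrane protein, one of a family of integral proteins of vesicles that recycle to the cell surface. KDM5A removes methyl groups from lysine 4 of histone H3, a mark of active promoters. WASL, also called N-WASP, activates the ARP2/3 complex, which starts branched actin filaments. FKBP1A, also called FKBP12, is a prolyl isomerase that binds FK506 and rapamycin, and through these drugs calcineurin and mTOR, and it also binds type I receptors of the TGF-beta family.

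The DNA at or beside the summits of the 4 genes is shown because an ETS-type sequence lay within 50 bp of the summits of all 3 libraries. The plus strand of GRCh37 is given in lower case, and capitals mark each CCGGAAA or CCGGAAG on either strand, which on the minus strand reads TTTCCGG or CTTCCGG. The first stretch, at chr19:1905675-1905836, holds the SCAMP4 summits, which lie in an intron of most SCAMP4 transcripts that cross them. The second is at the KDM5A start site at chr12:498456-498485. The third lies upstream of WASL at chr7:123389101-123389269 and the last upstream of FKBP1A at chr20:1373809-1373952. The KDM5A stretch holds the matches and not the summits, which lie just after its end, and it is kept short because it is in the first exon of that gene.
SCAMP4: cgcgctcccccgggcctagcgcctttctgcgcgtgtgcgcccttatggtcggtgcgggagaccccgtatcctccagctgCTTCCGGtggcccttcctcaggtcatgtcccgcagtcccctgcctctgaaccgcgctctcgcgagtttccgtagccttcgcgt
KDM5A: tcaggactTTTCCGGAAGttaccgtgctgt
WASL: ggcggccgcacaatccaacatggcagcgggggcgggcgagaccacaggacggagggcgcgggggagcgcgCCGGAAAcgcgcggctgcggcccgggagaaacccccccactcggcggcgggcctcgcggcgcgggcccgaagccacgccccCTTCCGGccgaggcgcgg
FKBP1A: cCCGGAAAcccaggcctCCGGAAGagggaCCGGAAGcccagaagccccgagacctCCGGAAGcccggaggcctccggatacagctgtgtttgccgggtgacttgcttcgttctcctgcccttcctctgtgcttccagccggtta

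A peak was taken as passing at a -log10 q of at least 3, where q is the p-value after adjustment by the authors' peak caller. The 3 libraries held 5354, 973 and 6474 passing peaks, of which 3845, 621 and 4366 were promoter peaks. Each of the 4 genes had exactly 1 passing peak in each library. A passing peak in every library was fixed by the choice of the genes, so nothing is read from that count. Among all protein coding genes, 19.0% had one within the promoter window in the OCI-Ly1 library, 3.14% in VAL replicate 1 and 20.9% in VAL replicate 2. In any of the 3 libraries the share was 27.4%, and in all 3 libraries it was 2.74%, which is 551 genes. The fold enrichment at a summit is the pileup of reads over the local background, and its median over passing promoter peaks was 6.46, 5.52 and 6.26 in that order.

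SCAMP4 (ENSG00000227500, chr19:1905213-1926012, plus strand) carried the strongest peak of the OCI-Ly1 library. Its fold enrichment was 67.8 there and 15.1 and 49.9 in VAL replicates 1 and 2. The -log10 q was 175, 43.7 and 119, which ranked the peak 1, 10 and 6 in the 3 lists. The peak was therefore near the top of every list and lowest in place in VAL replicate 1. It spanned chr19:1905130-1906031 in the OCI-Ly1 library, chr19:1905584-1905929 in VAL replicate 1 and chr19:1905559-1906356 in VAL replicate 2. The summits lay at 1905761, 1905750 and 1905751, that is 362, 351 and 352 bp downstream of the nearest SCAMP4 start site. SCAMP4 was thus the only one of the 4 genes whose summits lay well inside the transcribed region, in an intron of 6 of the 7 SCAMP4 transcripts that cross it and in an exon of the other. ADAT3 (ENSG00000213638), which encodes a subunit of a tRNA adenosine deaminase, runs in the same direction from a start site 1 bp away, so the peak cannot be assigned to only one of these genes.

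KDM5A (ENSG00000073614, chr12:389223-498486, minus strand) carried the strongest peak of VAL replicate 2. Its fold enrichment was 36.5, 15.6 and 67.9 in the OCI-Ly1 library and the VAL replicates. The -log10 q was 80.9, 55.3 and 180, with ranks of 14, 6 and 1. It ranked higher in both VAL libraries than in the OCI-Ly1 library. The peak spanned chr12:497981-499047, chr12:498239-498966 and chr12:497952-498970 in the 3 libraries. Its summits lay on the start site itself, at 498495, 498486 and 498502, which is 9, 0 and 16 bp upstream of it. CCDC77 (ENSG00000120647), a gene for a coiled-coil protein on the opposite strand, has its nearest start site at 498514, and the summits fell between or on these divergent start sites. An exon of a CCDC77 transcript with an earlier start also covers them. When a peak was given only to the gene with the closest start site to its centre, it went to CCDC77 in the OCI-Ly1 library and VAL replicate 1 and to KDM5A in VAL replicate 2.

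WASL (ENSG00000106299, chr7:123321997-123389057, minus strand) carried a peak that ranked 4 in the OCI-Ly1 library, 31 in VAL replicate 1 and 7 in VAL replicate 2. Its fold enrichment was 48.9, 11.6 and 47.7, and the -log10 q was 154, 23.5 and 111. The value of 23.5 was the lowest of the 12 passing peaks of the 4 genes. The peak spanned chr7:123388370-123389578, chr7:123388968-123389517 and chr7:123388306-123389644. Its summits at 123389178, 123389176 and 123389194 lay 121, 119 and 137 bp upstream of the single annotated WASL start site. The same summits lie in an exon of WASL-DT (ENSG00000272686), a divergent lncRNA that starts at 123389122. By the closest start site alone, the peak went to WASL-DT in VAL replicate 1 and to WASL in the other libraries.

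FKBP1A (ENSG00000088832, chr20:1349621-1373808, minus strand) differed most in rank between the lines. Its fold enrichment was 24.7 in the OCI-Ly1 library, and 22.4 and 54.7 in the VAL replicates. The -log10 q was 54.4, 71.7 and 133, with ranks of 43, 3 and 3. Both VAL libraries thus placed it at rank 3, while the OCI-Ly1 library placed it far lower. The peak spanned chr20:1373158-1374166, chr20:1373692-1374407 and chr20:1373490-1374448. Its summits at 1373876, 1373876 and 1373877 lay 68, 68 and 69 bp upstream of the nearest start site, where no transcript is annotated. A second gene model on the same strand, ENSG00000274322, starts at 1373740 and shares the peak.

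Beside these 12 passing peaks, 79 weaker peaks were listed within 3 kb of a start site of the 4 genes, 91 in all. None of the 79 passed. Their -log10 q reached at most 2.62, a peak at SCAMP4 in the OCI-Ly1 library, their fold enrichment at most 4.68 with a median of 2.33, and their summits held at most 8 reads. The weakest passing peak, WASL in VAL replicate 1, had a -log10 q of 23.5 and a fold enrichment of 11.6. It and the strongest of the others come from different libraries. The genes were chosen by the strength of their passing peaks, so nothing is read from the gap. Most of the weaker peaks belonged to SCAMP4, which has 12 start sites and 20, 3 and 23 listed peaks in the 3 libraries, while WASL with 1 start site had 1, 1 and 4. KDM5A had 16, 5 and 4 listed peaks and FKBP1A 6, 2 and 6.

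**Figure D1:**
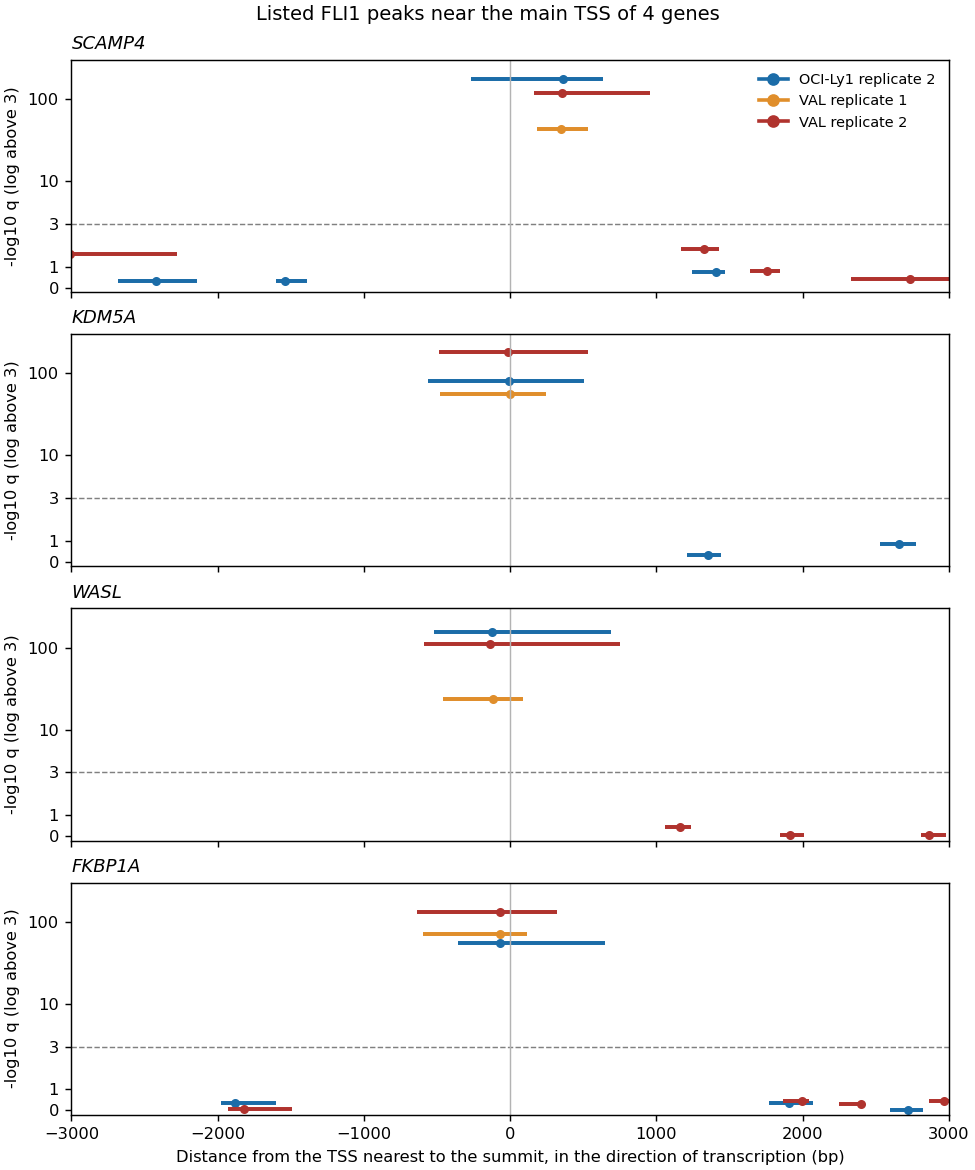
Listed FLI1 peaks of the 4 genes, with the distance in bp from the start site nearest to the VAL replicate 2 summit on the horizontal axis and the -log10 q on the vertical axis (linear to 3, logarithmic above). Bars are peaks, points are summits, colors are libraries, and the dashed line is the passing value of 3. Each gene has 1 passing peak per library over or beside the start site, and the other peaks shown lie below the line. Peaks near more distant start sites fall outside the window.

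The position of the 4 genes among all shared promoter sites was then described. A site was the best-ranked passing promoter peak of a gene in each of the 3 libraries, and genes with the same peaks shared a site. The peaks of a site were not required to overlap, and a peak could enter more than 1 site. At RNA5-8SP2, for example, the summits spanned 2357 bp. Spans and read totals over all sites include such cases. In this way 506 sites were found, of which 426 belonged to at least 1 protein coding gene. Ordered by the worst of the 3 ranks, SCAMP4 came at place 1 with a worst rank of 10, KDM5A at place 2 of the coding sites with 14, WASL at place 6 with 31 and FKBP1A at place 9 with 43. Over all 506 sites, those without a coding gene included, the places were 1, 4, 10 and 15. The 4 genes are therefore among the first 10 coding sites but do not fill the first 4 places. The site of RNF121 and XNDC1N, with the readthrough model XNDC1N-ZNF705EP-ALG1L9P, ranked 13, 19 and 8, that of ARHGAP30 ranked 6, 8 and 23, and that of DDX5 and CEP95 ranked 5, 27 and 15. The site of UFD1 and CDC45 ranked 26, 13 and 31 and tied with WASL, and that of C1orf112 and METTL18 ranked 25, 39 and 31. The median of the 3 ranks was 6 for SCAMP4 and KDM5A, 7 for WASL and 3 for FKBP1A.

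**Figure D2:**
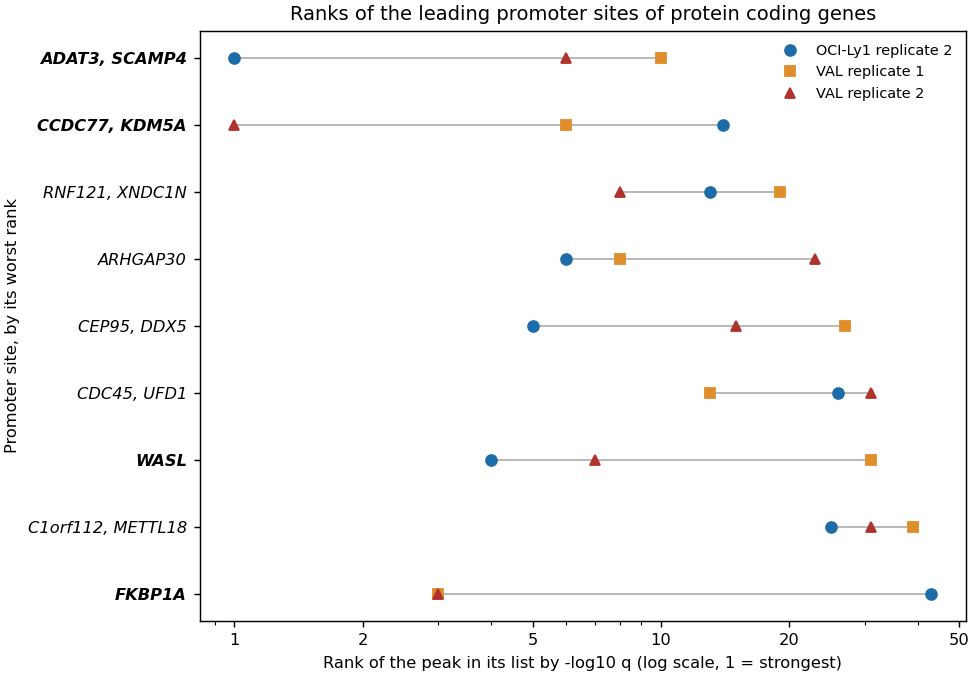
Ranks of the first 9 shared promoter sites of protein coding genes, with the rank by -log10 q on a logarithmic horizontal axis and the sites ordered by their worst rank from top to bottom. Symbols are libraries, grey lines join the lowest and highest rank of a site, and bold names are the sites of the 4 genes. FKBP1A has ranks of 3 in both VAL libraries and 43 in the OCI-Ly1 library, while WASL has 4 in the OCI-Ly1 library and 31 in VAL replicate 1.

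The genes closest in pattern were found by the distance between the log10 ranks of 2 genes over the 3 libraries, where 0 means equal ranks. Genes that share a peak have a distance of 0, which holds for SCAMP4 with ADAT3, KDM5A with CCDC77 and FKBP1A with ENSG00000274322. Of genes with a peak of their own, WASL was nearest to DDX5 and CEP95 at 0.350. DDX5 encodes an RNA helicase. KDM5A and FKBP1A were nearest to each other at 0.745, both having higher places in VAL than in the OCI-Ly1 library, and SCAMP4 was nearest to WASL at 0.780. These distances rest on 3 libraries and carry no test.

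The fold enrichment and the -log10 q of a peak depend on the reads at the summit and on the local background, and both were inferred from the values of the caller. At the KDM5A summit the reads were 51 (95% exact Poisson interval 38.0 to 67.1) in the OCI-Ly1 library, 67 (51.9 to 85.1) in VAL replicate 1 and 98 (79.6 to 119) in VAL replicate 2. At WASL they were 103 (84.1 to 125), 33 (22.7 to 46.3) and 60 (45.8 to 77.2). These are raw reads from libraries whose totals were not used, so they are read within a library. Within the OCI-Ly1 library the intervals of KDM5A and WASL did not overlap, WASL having more, and in both VAL libraries KDM5A had more. At SCAMP4 the reads were 93 (75.1 to 114), 53 (39.7 to 69.3) and 66 (51.0 to 84.0). At FKBP1A they were 44 (32.0 to 59.1), 70 (54.6 to 88.4) and 71 (55.5 to 89.6). The intervals cover counting error only. Median reads over passing promoter peaks were 9, 18 and 8, and a peak passed with at least 6, 8 and 6 reads. Other passing peaks held more reads than these. Ranked by reads, the 4 genes lay at 42 to 138 in the OCI-Ly1 library. They lay at 57 to 146 in VAL replicate 1 and at 20 to 58 in VAL replicate 2.

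The local background at all 4 genes was higher in VAL replicate 1 than in VAL replicate 2. Its median over all passing promoter peaks was 0.442, 2.34 and 0.370 reads in the 3 libraries, so this difference is not particular to the 4 genes. It was 2.18 reads at FKBP1A in VAL replicate 1 and 0.317 in VAL replicate 2, beside 70 and 71 reads. At KDM5A it was 3.35 and 0.459 reads, at SCAMP4 2.58 and 0.343, and at WASL 1.94 and 0.278. The value of 0.278 recurred at weaker SCAMP4 peaks in VAL replicate 2, and no listed peak of the 4 genes was lower there. Whether it is a minimum set by the caller was not tested. In the OCI-Ly1 library the background was 0.426 at KDM5A, 0.387 at SCAMP4, 0.819 at FKBP1A and 1.13 at WASL. WASL had more reads than SCAMP4 in that library and a lower fold. Since the fold is divided by this background, fold enrichments are not on a common scale between libraries.

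To set the 4 genes side by side within a library, the reads at their summits were expressed as a share of the 4 summed, 291 reads in the OCI-Ly1 library, 223 in VAL replicate 1 and 295 in VAL replicate 2. WASL held 35.4% (95% exact binomial interval 29.9 to 41.2) in the OCI-Ly1 library, 14.8% (10.4 to 20.1) in VAL replicate 1 and 20.3% (15.9 to 25.4) in VAL replicate 2. KDM5A held 17.5% (13.3 to 22.4), 30.0% (24.1 to 36.5) and 33.2% (27.9 to 38.9). On this scale, for these genes the interval of the OCI-Ly1 library did not overlap that of either VAL library, WASL being higher in OCI-Ly1 and KDM5A lower. FKBP1A held 15.1% (11.2 to 19.8), 31.4% (25.4 to 37.9) and 24.1% (19.3 to 29.4), and its OCI-Ly1 interval met that of VAL replicate 2. SCAMP4 held 32.0% (26.6 to 37.7), 23.8% (18.3 to 29.9) and 22.4% (17.7 to 27.6), with intervals that overlapped. The result depends on what the reads are a share of. As a share of the reads at all 506 shared sites, WASL held 0.885% (0.723 to 1.07), 0.242% (0.167 to 0.339) and 0.530% (0.405 to 0.682), and its OCI-Ly1 interval again lay above both VAL intervals. KDM5A held 0.438% (0.327 to 0.576), 0.491% (0.381 to 0.623) and 0.866% (0.704 to 1.05), and its OCI-Ly1 interval overlapped that of VAL replicate 1. On this scale 1 of the 4 genes lay apart, and so did 11 of the 506 shared sites (2.17%), 8 of them higher in the OCI-Ly1 library and 3 lower. With 1 library of OCI-Ly1, a difference between the lines cannot be told apart from a difference between libraries, and no test was made. A larger share of one gene also lowers those of the others.

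**Figure D3:**
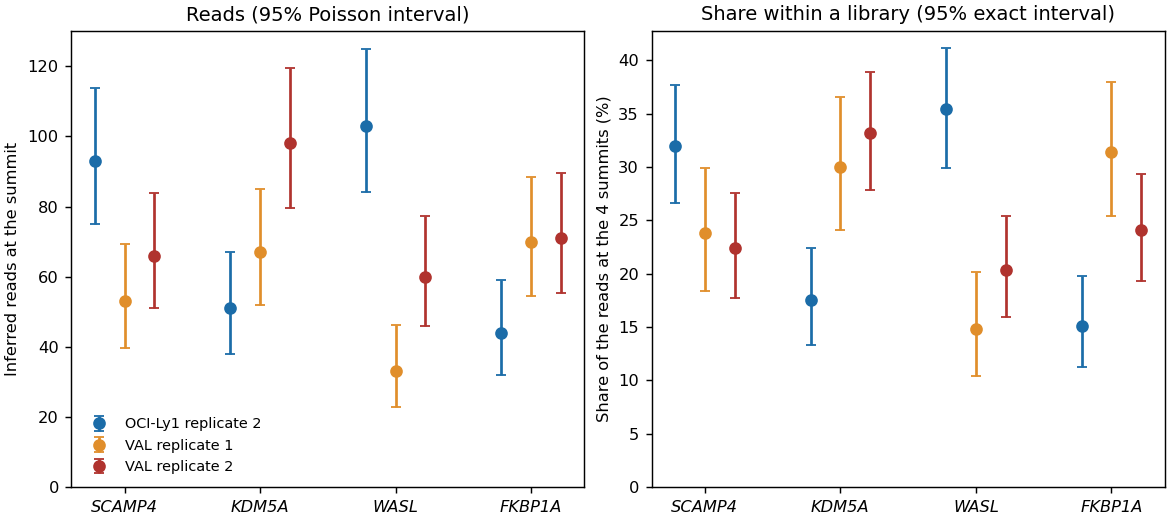
Inferred reads at the summit of each gene (left, with 95% Poisson intervals) and the share of each gene in the reads of the 4 summits of a library (right, in percent, with 95% exact binomial intervals). Points are single libraries, and intervals cover counting error only. In the OCI-Ly1 library the shares of SCAMP4 and WASL are 32.0% and 35.4%, and in both VAL libraries KDM5A and FKBP1A hold the larger shares.

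The summits of the 3 libraries lay close together. They spanned 1 bp at FKBP1A, 11 bp at SCAMP4, 16 bp at KDM5A and 18 bp at WASL. Over all 506 shared sites the median span was 35 bp with quartiles of 20 and 69, and 113 sites (22.3%) had a span of 18 bp or less. Among the first 50 sites in the order by worst rank, the median was 17 bp and 28 of 50 (56.0%) spanned 18 bp or less. The quartiles of these 50 were 14 and 33 bp. The spans of KDM5A and WASL thus lay within them, and those of SCAMP4 and FKBP1A below the lower one. The peak ends varied more, and the median width of passing promoter peaks was 671, 378 and 762 bp in the 3 libraries.

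All 12 summits of the 4 genes had CCGGAAA or CCGGAAG within 50 bp on either strand, a measure that the choice of genes did not use. Of the passing promoter peaks, 44.7%, 53.5% and 37.7% had such a match in the 3 libraries. Of the first 100 promoter peaks of each library, 70.0%, 57.0% and 51.0% did, and of windows of the same length at 78564 start sites of protein coding transcripts, 7.96%. The 12 summits stand for 4 places in the genome, which is too few for a rate.

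The 4 places differed in the number and the arrangement of the matches. SCAMP4 had a single match, CCGGAAG on the minus strand, whose centre lay 4, 7 and 6 bp from the summits. KDM5A had a CCGGAAG on the plus strand that overlapped a CCGGAAA on the minus strand with starts 3 bp apart, and the nearer centre lay 25, 16 and 32 bp from the summits, inside the first exon of KDM5A. The KDM5A match was also the only one within 50 bp of a summit that fitted the longer CCGGAAGT. WASL had a CCGGAAA on the plus strand 4, 2 and 20 bp from the summits, and a CCGGAAG on the minus strand 77, 79 and 61 bp from them, with the starts 81 bp apart.

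FKBP1A had the densest group, with 4 matches on the plus strand between the start site and the summits, their starts 16, 12 and 26 bp apart, and the nearest centre lay 9, 9 and 10 bp from the summits. Within 50 bp of the summit, 3 of them were complete in the OCI-Ly1 library and VAL replicate 1 and 2 in VAL replicate 2, whose summit lay 1 bp further away. At least 2 matches within 50 bp were found at 8.04%, 16.7% and 6.71% of the passing promoter peaks of the 3 libraries. At least 4 matches within 75 bp were found at 8 of 3845, 4 of 621 and 8 of 4366 passing promoter peaks, FKBP1A among them. In the RefSeq promoters of GRCh38, which run from 250 bases before to 50 after a start, all 4 genes were found, with 4 matches for FKBP1A, 2 each for KDM5A and WASL and 0 for SCAMP4, whose summits lie beyond that window. Of all 35116 RefSeq promoters, 13.4% held at least 1 match on either strand.

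**Figure D4:**
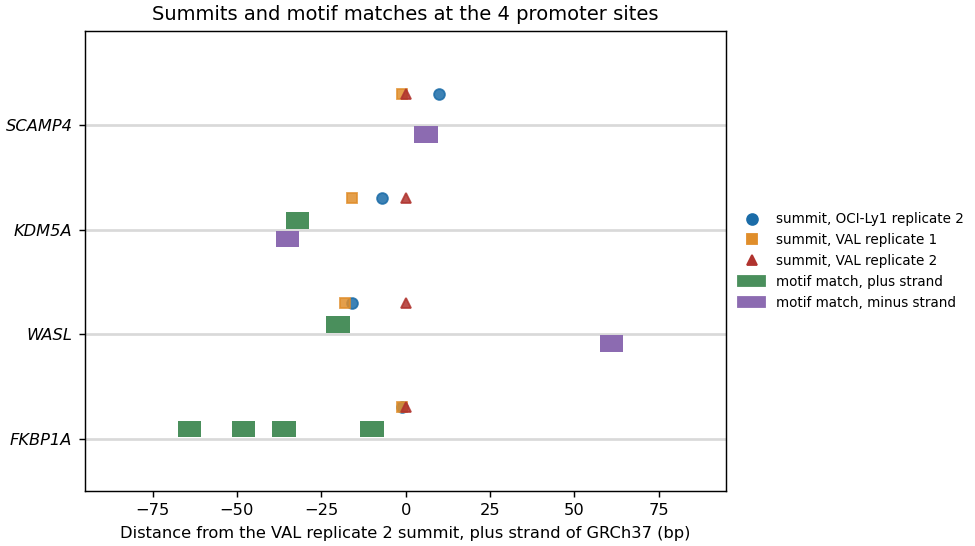
Summits of the 3 libraries (symbols) and matches to CCGGAAA or CCGGAAG (boxes, green for the plus and purple for the minus strand) at each of the 4 places, with the distance from the VAL replicate 2 summit in bp along the plus strand on the horizontal axis. FKBP1A has 4 matches on 1 side of its summits, KDM5A an overlapping pair, WASL 2 matches and SCAMP4 a single match at the summits.

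The base composition around the summits also differed among the 4 places. Within 100 bp of the summit the G and C content was 79.1% to 81.1% at WASL and 54.2% to 54.7% at KDM5A. It was 67.2% to 68.7% at SCAMP4 and 66.2% in each library at FKBP1A. The median over passing promoter peaks was 66.2%, 65.7% and 66.2%, with quartiles of 60.7 and 71.6 in the OCI-Ly1 library. WASL therefore lay above the upper quartile and KDM5A below the lower.

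Genes related to the 4 by family or by partnership were examined in lists taken from general knowledge, with 66 genes beside the 4 themselves. A passing promoter peak was found in any library for 25 of the 66 (37.9%), beside 27.4% of all protein coding genes. Per library, 17, 2 and 20 of the 66 had one, beside 19.0%, 3.14% and 20.9% of all protein coding genes. The median of the highest -log10 q per gene was 1.61, 0.355 and 1.71 over the 66 genes and 1.22, 0.183 and 1.64 over the 20136 protein coding genes. Only ARPC2, a subunit of the ARP2/3 complex on which WASL acts, passed in all 3 libraries, beside 2.74% of all protein coding genes. Its -log10 q was 35.1 in the OCI-Ly1 library, 10.7 in VAL replicate 1 and 13.0 in VAL replicate 2, below that of WASL in each.

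In the list of ARP2/3 subunits, 6 of 9 genes (66.7%) had a passing peak in any library, beside 27.4% of all protein coding genes. The median -log10 q of this list was 7.27, 2.01 and 6.82 in the 3 libraries. Of the WASP, WAVE and WIP proteins, the family of WASL and its binding partners, 4 of 10 (40.0%) had a passing peak. The highest value among them was at WASF1, a WAVE protein, with a -log10 q of 13.6, 0.118 and 4.33. Both ARPC2 and WASF1 had their lowest value in VAL replicate 1, the library with the fewest passing peaks.

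Of the histone demethylases, 6 of 19 beside KDM5A had a passing peak, with the highest value at KDM7A, whose -log10 q was 22.9, 0.757 and 6.56. Of the SCAMP family, 2 of 4 had one, and SCAMP2 reached 5.62, 0.782 and 15.9. Of the FKBP family, 4 of 14 had one, led by FKBP2 with 10.8, 0.490 and 7.95. Of the partners of FKBP1A, 3 of 10 had one, led by PPP3R1, the regulatory subunit of calcineurin, with 19.1, 1.29 and 6.07. In each of these lists the 4 genes described here had a higher -log10 q than any relative in the same library, which is what they were chosen for.

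**Figure D5:**
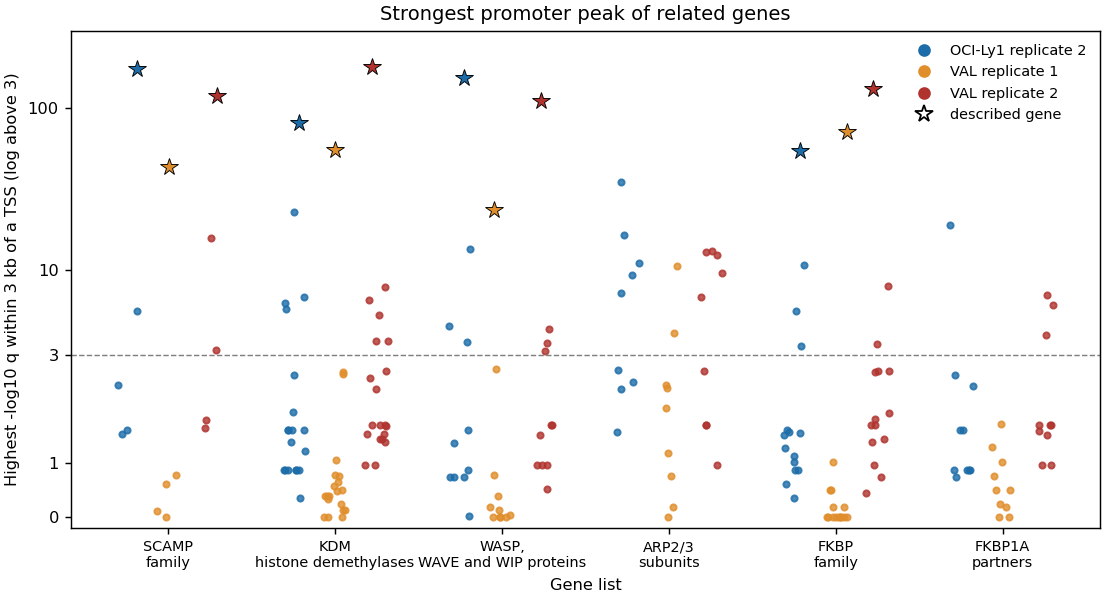
Highest -log10 q of a promoter peak for each gene of 6 lists (horizontal axis) in the 3 libraries (colors), on a vertical axis linear to 3 and logarithmic above. Circles are related genes, stars are SCAMP4, KDM5A, WASL and FKBP1A, and the dashed line is the passing value of 3. Among the related genes, ARPC2 in the ARP2/3 list is the one above the line in all 3 libraries.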

How the data were processed

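FLI1 ChIP-Seq was analysed in OCI-Ly1 and VAL from 1 peak list per library. Per the study's methods, reads were mapped to GRCh37 with bowtie2, filtered with SAMtools for unique positions, a mapping quality of at least 10 and no duplicates, and called with HOMER at an FDR of 0.001. The submitters' processing notes name BWA and CASAVA 1.4 instead, and the lists have the columns that MACS2 writes, whose caller, control and settings are not given in the sources used here. The fold enrichment deposited by the authors is a ratio of the summit pileup to the local background. The −log10 p and −log10 q were deposited by the authors as the caller wrote them.

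Promoter peaks were those centred within 3 kb of any TSS of GENCODE release 44 on GRCh37, the build of the files (no peak ran past a chromosome end). Passing meant a −log10 q of 3 or more, which has the same number as the FDR in the study's methods. Since the lists may come from another caller, the passing peaks need not be the peaks called in the study. Ranks were by −log10 q within a library, and the worst of the 3 ranks ordered the sites. Reads and background at a summit were solved from fold = (reads + 1) / (background + 1) and the Poisson p-value, to 0.001 of the −log10 p, which gave no solution for 3, 0 and 1 passing peaks of the 3 libraries. The solution was tested only on data simulated from this same relation. Such a test cannot show that the relation holds for the deposited lists. Library totals were not used, so depth is known only through these reads. Motifs were sought in the GRCh37 sequence.

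The 4 genes and the lists were chosen with earlier results of these data known, and no test was made, since the values chose the genes and OCI-Ly1 has 1 usable library. Named beside them are the genes that share their peaks, the 10 protein coding genes with the best worst rank, the 2 nearest in rank pattern, and from each list the genes passing in all 3 libraries or, failing that, the one with the highest −log10 q. C1orf112 and METTL18 lie outside this rule and were named after their values were seen. Tools were pysam 0.24.0, scipy 1.17.1, pandas 2.3.3, numpy 2.4.6 and matplotlib 3.10.9 under python 3.11.15.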

Additional observations from a re-analysis of the deposited data

Results flagged for a closer look

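For 5 of the 6 pairs among the 4 genes, the ratio of the reads at their summits lay on opposite sides of 1 in the OCI-Ly1 library and in both VAL libraries. The difference between the lines was not tested, since OCI-Ly1 has 1 usable library. The ratio of SCAMP4 to KDM5A was 1.82 in the OCI-Ly1 library, 0.791 in VAL replicate 1 and 0.673 in VAL replicate 2. That of SCAMP4 to FKBP1A was 2.11, 0.757 and 0.930. The ratio of KDM5A to WASL was 0.495, 2.03 and 1.63, and that of WASL to FKBP1A was 2.34, 0.471 and 0.845. The ratio of SCAMP4 to WASL was 0.903, 1.61 and 1.10, the closest to 1 in OCI-Ly1. The remaining pair, KDM5A to FKBP1A, had 1.16, 0.957 and 1.38 and did not follow this pattern. These sides take no account of counting error. By the exact Poisson intervals given above, only KDM5A and WASL lay apart in every library. The intervals of SCAMP4 and WASL overlapped in every library. Those of SCAMP4 with KDM5A or FKBP1A overlapped in both VAL libraries, and those of WASL and FKBP1A in VAL replicate 2. The pattern thus exceeded counting error throughout only for KDM5A and WASL. Of the 127765 pairs among all 506 shared sites, 13.1% had a ratio on opposite sides of 1 in this way, and of the 1225 pairs among the first 50 sites 7.51%. The 4 genes were chosen by the strength of their peaks, so these shares are given beside the count as a description. The 5 ratios are built from the same 4 counts per library and are not independent, and the part of the higher background of VAL replicate 1 in them was not tested.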

How the results depend on the processing

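Of 75 values recomputed under another setting, 71 kept their side, among them the 48 of 48 for the −log10 q of the 4 genes. Those 48 had little room to change and are no sign of robustness. Each gene had only 1 passing peak per library, centred at most 558 bp from a start site. With the centre of the peak in place of the summit, the largest span between libraries rose from 18 to 387 bp. The centre is set by the peak ends, which differed between libraries. With CCGGAAGT in place of the shorter motif, 3 of 12 summits had a match, all at KDM5A. With every listed peak accepted, 66 of 66 related genes had a promoter peak in any library, against 25. Of the 20136 protein coding genes, 19909, 12555 and 19845 had a listed promoter peak in the 3 libraries. The count of 66 is therefore not read as a trait of the related genes. With the reads at all shared sites as the total, a choice made after seeing the data, 1 of the 4 genes (WASL) had an OCI-Ly1 share apart from both VAL shares, against 2 with the reads of the 4 genes as the total. Leaving out 1 library at a time, the 4 genes lay within the first 10 to 12 coding sites (10 with all libraries), the largest span was 11 to 18 bp, 8 of 8 summits had the motif and 18 to 25 related genes passed. With the closest start site only, the order could not be computed, since KDM5A and WASL lost their peak to CCDC77 or WASL-DT in at least 1 library. No paired analysis was possible because the results come from no test and OCI-Ly1 has 1 usable library. The passing peaks with the fewest reads had 6 at the summit, or 8 in VAL replicate 1, and the part of depth in this was not tested.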
